A study of Mus musculus with 10 samples.

Results

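The 10 genes described here belong to the contractile apparatus that mammary myoepithelial cells share with smooth muscle, measured in whole mouse mammary tumours. They are Acta2, Actg2, Tagln, Cnn1, Cald1, Myh11, Myl9, Mylk, Lmod1 and Oxtr, 10 of the 55335 genes in the deposited counts, matched by Ensembl identifier. They were chosen by function, with the counts of these same tumours and their DOX_pos against DOX_neg differences already known, so the values below describe the genes and are not independent evidence about them.

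Tumours of the Wap-Myc model were profiled, in which the Wap promoter, active in alveolar epithelium in pregnancy and lactation, drives the Myc oncogene. All 10 tumours grew from mammary epithelial cells of virgin Wap-Myc mice on the FVB background, transduced with the lentivirus pIND21-HPN, a doxycycline-inducible construct for hepsin, at a multiplicity of infection of 10. The cells were placed in fat pads of hosts 3 weeks old, Myc was switched on from 8 weeks of age by 2 pregnancies, and the tumour was collected at 1 cm. In the 5 DOX_pos tumours the host drank doxycycline at 2 mg/ml in 5% sucrose, begun 3 days after transplantation, and in the 5 DOX_neg tumours the host drank sugar water without it. Because the DOX_neg tumours carry the construct too and no tumour has doxycycline without it, doxycycline itself and hepsin induction cannot be told apart. The fat pad belongs to the host, so vessels and stroma can come from cells that carry neither the transgene nor the virus. Whether every tumour had a host of its own is not stated in the labels, and the tests therefore measure only how these tumours vary, which may be partly technical.

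Myoepithelial cells form the outer, basal layer of mammary ducts and alveoli and squeeze milk out during suckling. Oxytocin from the pituitary binds its receptor on these cells, calcium is released, calmodulin activates myosin light chain kinase, and phosphorylated myosin pulls on actin filaments. The genes of this apparatus are classic targets of serum response factor (SRF) with its partners of the myocardin family, which bind a DNA element called the CArG box. Pericytes, vascular smooth muscle and myofibroblasts use much of the same set, so in whole tumours the transcripts can come from several cell types.

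Libraries held 14256948 to 20469533 counts, except DOX_pos 3 with 39358457. The first principal component took 34.7% of the variance and had DOX_pos 5 and DOX_neg 4 at its ends. Hpn, the mouse gene that encodes hepsin, had 26.4, 46.0, 25.1, 32.8 and 28.2 CPM (counts relative to the TMM-scaled library total) in DOX_pos tumours 1 to 5. In DOX_neg tumours 1 to 5 it had 25.7, 25.0, 23.0, 14.2 and 20.4 CPM. The means on the log2(CPM + 1) scale differed by 0.52 (2-sided exact permutation p = 0.0159, smallest possible 0.00794), and 4 of 5 DOX_pos tumours stood above every DOX_neg tumour. In the fit across all genes Hpn had a log2 fold change of 0.55 (SE 0.20) and did not pass, with adjusted p of 0.247 in edgeR, 0.13 in DESeq2 and 0.202 in limma voom. Since the groups overlapped, these values do not by themselves check the labels. Whether reads from the construct were counted under this gene was not tested. Skeletal muscle markers differed between single tumours, since 12 of them summed to 83.7 CPM in DOX_pos 1, 40.2 in DOX_pos 3 and 76.2 in DOX_neg 5, and to between 1.43 and 2.95 CPM in each of the other 7 tumours.

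In the DOX_pos tumours all 10 contractile genes had a fitted log2 fold change above 0 over DOX_neg, a sign shared by 50.5% of all 16167 genes tested. Many of the 10 genes varied together between tumours, as described below, so their signs are not independent observations. Actg2 counts among them at only 0.01 (SE 0.43). The median was 0.53, against 0.002 over all tested genes, and it lay between 0.28 (without DOX_pos 1) and 0.79 (without DOX_neg 5) with 1 tumour left out. None passed edgeR's quasi-likelihood test with Benjamini-Hochberg adjustment at 0.05, where 0% of all genes passed. At an unadjusted p under 0.05, 2 of 10 (Lmod1 and Myh11) were higher, against 8.2% of all genes. DESeq2 called 1 of them (Lmod1), against 1.24% of all genes called higher and 0.748% lower, and limma voom with sample weights called 2 (Lmod1 and Myh11), against 2.12% higher and 2.68% lower. More cells of a type and more RNA per cell cannot be told apart in such bulk tumours.

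**Figure D1:**
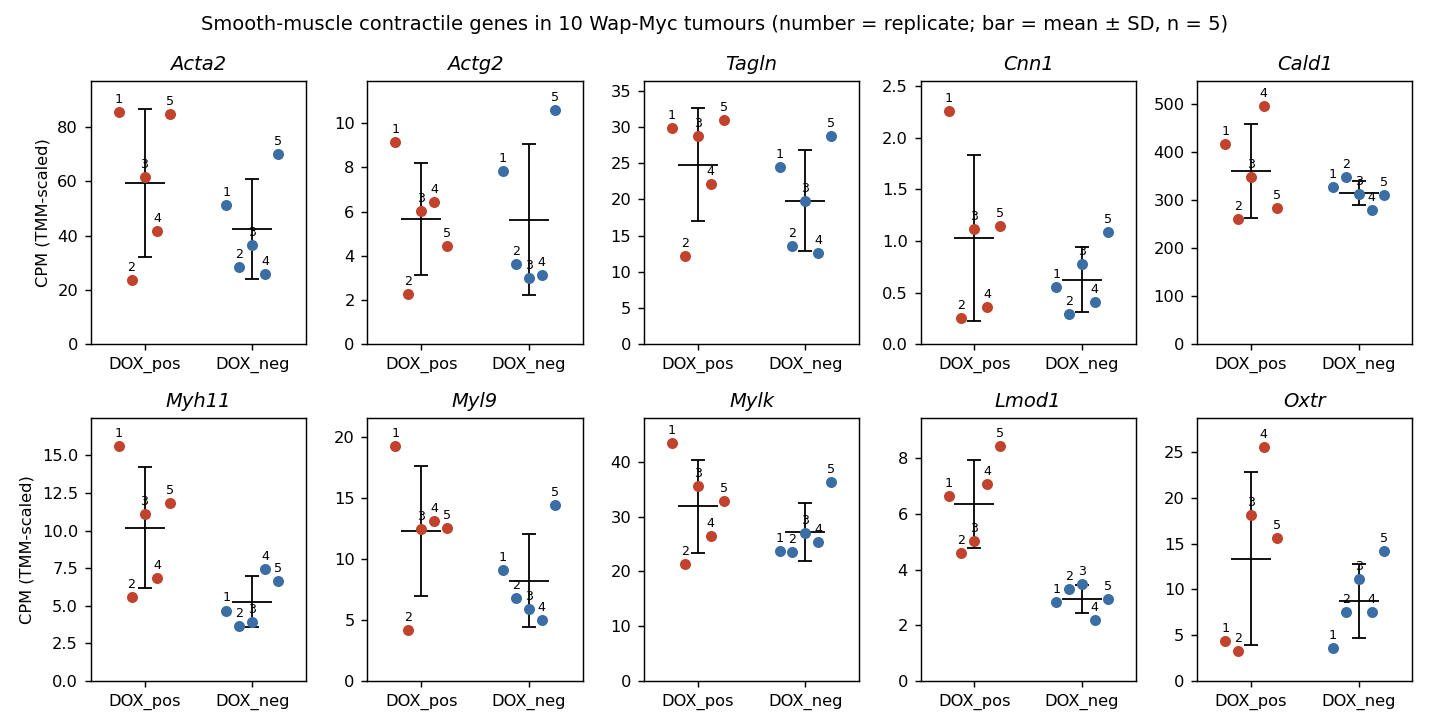
CPM of each contractile gene (y axis, from 0) in the 5 DOX_pos (left) and 5 DOX_neg (right) tumours, with the replicate number above each point and bars for mean ± SD. Lmod1 is the gene whose groups do not overlap, and DOX_pos 2 is the lowest tumour for 8 of the 10 genes.

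Per kilobase of exon, the order of mean levels was the same in both groups, with caldesmon and smooth-muscle actin at the top and calponin at the bottom. On this CPM per kilobase scale Cald1 averaged 30 ± 8.08 in DOX_pos and 26.2 ± 2.12 in DOX_neg (SD, n = 5 each). Acta2 averaged 27.1 ± 12.4 in DOX_pos and 19.4 ± 8.37 in DOX_neg, and Cald1 exceeded it in only 7 of 10 tumours, so these neighbours overlap. Acta2 exceeded the next gene, Tagln, in 10 of 10 tumours. Tagln (12.5 ± 3.95 in DOX_pos, 9.96 ± 3.5 in DOX_neg) exceeded Myl9 (10.6 ± 4.61 and 7.07 ± 3.24) in 8 tumours, and Myl9 exceeded Actg2 in 10. Below that, Actg2, Mylk and Oxtr lay close together, with group means between 1.83 and 3.64, and changed places between tumours. Lmod1 averaged 1.61 ± 0.396 in DOX_pos and 0.747 ± 0.126 in DOX_neg, Myh11 averaged 1.34 ± 0.529 in DOX_pos and 0.693 ± 0.224 in DOX_neg, and the order of the pair held in 6 of 10 tumours. Cnn1 was lowest, at 0.375 ± 0.295 in DOX_pos and 0.229 ± 0.116 in DOX_neg.

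Promoter windows were searched for the CArG box named above and for a further element. RefSeq (GRCm38.p6) gave the 250 bases before a RefSeq transcript start for 7 of the 10 genes, in 8 windows, and Myh11, Tagln and Actg2 were not among them. These starts differ from the GENCODE gene starts used for the coordinates of the genes. The Acta2 window reaches 217 bases into the GENCODE gene, that of Mylk lies at a start 39740 bases inside it and 1 of the Cald1 windows at a start 110944 bases inside it. The search on both strands used the CArG box, in its strict form and with up to 1 C or G in its core, and CATTCC, the core of the element bound by TEAD factors, which does not overlap a CArG match in the windows shown. Strict CArG boxes occur in 1.47% of 32851 RefSeq windows of this length, boxes with the looser core in 8.59%, and CATTCC in 12.6%. Among the 8 windows, 2 held a CArG match (Acta2 and Myl9), those of Acta2, Lmod1, Mylk and 1 of Cald1 held CATTCC, and 3 held neither. The sequences of Acta2 and Myl9, which carry the CArG matches, and of Lmod1, the gene with the clearest separation between groups, are given 5′ to 3′ on the strand of the gene, with matches in capitals. They lie at chr19:34255374-34255623 (minus strand), chr2:156775214-156775463 (plus strand) and chr1:135324563-135324812 (plus strand).
Acta2: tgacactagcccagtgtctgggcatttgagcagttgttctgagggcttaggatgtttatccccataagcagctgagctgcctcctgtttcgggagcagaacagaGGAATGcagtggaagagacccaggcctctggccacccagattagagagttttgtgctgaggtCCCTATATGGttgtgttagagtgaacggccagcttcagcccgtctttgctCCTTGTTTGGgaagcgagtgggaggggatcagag
Myl9: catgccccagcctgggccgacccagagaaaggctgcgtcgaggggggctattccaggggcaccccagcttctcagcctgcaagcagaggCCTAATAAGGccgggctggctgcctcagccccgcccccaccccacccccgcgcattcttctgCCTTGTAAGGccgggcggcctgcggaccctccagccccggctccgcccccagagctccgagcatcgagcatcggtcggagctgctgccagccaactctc
Lmod1: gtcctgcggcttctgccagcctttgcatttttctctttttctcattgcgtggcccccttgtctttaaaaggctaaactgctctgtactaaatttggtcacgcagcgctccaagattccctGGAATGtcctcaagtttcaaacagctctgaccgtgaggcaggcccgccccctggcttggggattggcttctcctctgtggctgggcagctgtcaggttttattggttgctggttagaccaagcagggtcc
Acta2 has 2 looser CArG matches and 1 CATTCC, here on the opposite strand as GGAATG. Myl9 has 2 CArG matches, 1 of them strict, and Lmod1 has 1 CATTCC, again on the opposite strand. A match describes these letters only, and no binding was measured.

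Among the actins, Acta2 (smooth-muscle alpha-actin, the filament protein most used to mark myoepithelium; chromosome 19, 34241090 to 34255590, GRCm38) had 85.7, 23.5, 61.6, 41.6 and 85.0 CPM in DOX_pos tumours 1 to 5. In DOX_neg tumours 1 to 5 it had 51.3, 28.3, 36.7, 26 and 70.2 CPM. DOX_pos 1, DOX_pos 5 and DOX_neg 5 were the highest tumours, DOX_pos 2 was below all others, and the groups overlapped. Its log2 fold change was 0.48 (SE 0.37, edgeR adjusted p = 0.526). Actg2 (smooth-muscle gamma-actin, typical of visceral muscle; chromosome 6, 83512905 to 83536265) had 9.16, 2.25, 6.02, 6.43 and 4.46 CPM in DOX_pos and 7.82, 3.64, 3.01, 3.12 and 10.6 CPM in DOX_neg. The highest tumour was DOX_neg 5 and the lowest DOX_pos 2, and the groups covered nearly the same range. Actg2 had the smallest difference of the 10 genes, with a log2 fold change of 0.01 (SE 0.43, edgeR adjusted p = 0.996), and its sign turned in 9 of the alternative settings. Of the 75-base words in the transcripts of either actin gene, 0% also occurred in transcripts of another gene, so no read-length word was shared.

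Other proteins bind along the actin filament. Tagln (transgelin, an actin-binding protein of smooth muscle; chromosome 9, 45929619 to 45936058) had 29.9, 12.2, 28.8, 22.1 and 30.9 CPM in DOX_pos and 24.4, 13.5, 19.7, 12.6 and 28.8 CPM in DOX_neg. The order of tumours was nearly that of Acta2, with the groups overlapping. Tagln had a log2 fold change of 0.32 (SE 0.29, edgeR adjusted p = 0.584). The gene overlaps Pcsk7 and Gm48529 on the opposite strand, and no source used here gives the strand setting of the counting.

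Calponin and caldesmon both bind actin and hold back myosin. Cnn1 (calponin 1; chromosome 9, 22099216 to 22109630) rested on few reads, 5 to 45 counts per tumour, which made 2.26, 0.25, 1.12, 0.357 and 1.15 CPM in DOX_pos and 0.554, 0.295, 0.781, 0.405 and 1.09 CPM in DOX_neg. It had the widest range of the 10 genes, 9.07-fold between its highest and lowest tumour, and both ends (DOX_pos 1 and DOX_pos 2) were DOX_pos tumours. Cald1 (caldesmon, made in many cell types besides muscle; chromosome 6, 34598500 to 34775473) had the narrowest range, 1.91-fold. It measured 417, 260.4, 349, 496 and 283 CPM in DOX_pos, against 327, 349, 312, 279.5 and 311 CPM in DOX_neg. The 2 highest and the lowest tumour were DOX_pos, while DOX_neg tumours lay close together. The log2 fold changes were 0.72 for Cnn1 (SE 0.55, edgeR adjusted p = 0.527) and 0.19 for Cald1 (SE 0.16, edgeR adjusted p = 0.56).

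On the myosin side, Myh11 (the smooth-muscle myosin heavy chain, the motor of the thick filament; chromosome 16, 14194535 to 14291372) had 15.6, 5.59, 11.1, 6.86 and 11.8 CPM in DOX_pos. DOX_neg tumours had 4.68, 3.64, 3.91, 7.46 and 6.65 CPM. DOX_pos 1, 3 and 5 stood above every DOX_neg tumour, while DOX_pos 2 and 4 lay within the DOX_neg range. Myh11 had a log2 fold change of 0.95 (SE 0.30), with an edgeR p of 0.00894 before adjustment and an adjusted p of 0.235 after it. The adjusted p was 0.0724 with DESeq2 and 0.047 with limma voom, the only setting in which Myh11 passed. Limma voom weighted the tumours unequally, from 0.465 for DOX_pos 2 to 4.65 for DOX_pos 3.

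The regulatory light chain and its kinase set when that motor works. Myl9 (the regulatory light chain; chromosome 2, 156775420 to 156781658) had 19.2, 4.19, 12.4, 13.1 and 12.5 CPM in DOX_pos, against 9.05, 6.79, 5.89, 4.97 and 14.4 CPM in DOX_neg. DOX_pos 2 was again the lowest tumour, and DOX_neg 5 exceeded 4 of the 5 DOX_pos tumours. Mylk (myosin light chain kinase, switched on by calmodulin; chromosome 16, 34745210 to 35002420) had 43.4, 21.3, 35.6, 26.5 and 32.8 CPM in DOX_pos and 23.7, 23.6, 27.0, 25.4 and 36.3 CPM in DOX_neg. Only DOX_pos 1 stood above every DOX_neg tumour, and DOX_pos 2 was the lowest of all. The log2 fold changes were 0.58 for Myl9 (SE 0.38, edgeR adjusted p = 0.453) and 0.23 for Mylk (SE 0.19, edgeR adjusted p = 0.549). Mylk, Cald1 and Lmod1 also overlap non-coding genes on the opposite strand.

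Lmod1 (leiomodin 1, which starts actin filaments in smooth muscle; chromosome 1, 135324807 to 135368065) had 6.63, 4.59, 5.03, 7.07 and 8.44 CPM in DOX_pos tumours. In DOX_neg tumours it had 2.83, 3.3, 3.49, 2.2 and 2.93 CPM. It was the gene of the 10 whose 5 DOX_pos tumours all stood above all 5 DOX_neg tumours, a separation found for 1.82% of all tested genes, with the reverse for 1.13%. Lmod1 averaged 6.35 ± 1.57 CPM in DOX_pos and 2.95 ± 0.497 CPM in DOX_neg (SD, n = 5 each), a 2.14-fold difference. Its log2 fold change of 1.10 (SE 0.19) had an edgeR p of 0.00015 and did not pass after adjustment (adjusted p = 0.196). DESeq2 gave an adjusted p of 0.000586 and limma voom 0.0352. DOX_pos 2, lowest for most of the other genes, was here merely the lowest of the DOX_pos tumours.

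Oxtr (the oxytocin receptor, which starts the contraction; chromosome 6, 112473683 to 112489943) had 4.31, 3.3, 18.1, 25.5 and 15.6 CPM in DOX_pos. DOX_neg tumours had 3.57, 7.48, 11.1, 7.52 and 14.2 CPM. The DOX_pos tumours fell into high (3, 4 and 5) and low (1 and 2) values on either side of most DOX_neg tumours, and DOX_pos 1, the highest tumour for 5 other genes, was among the low ones. Its log2 fold change was 0.60 (SE 0.54, edgeR adjusted p = 0.591), and its highest and lowest tumours differed 7.74-fold.

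**Figure D2:**
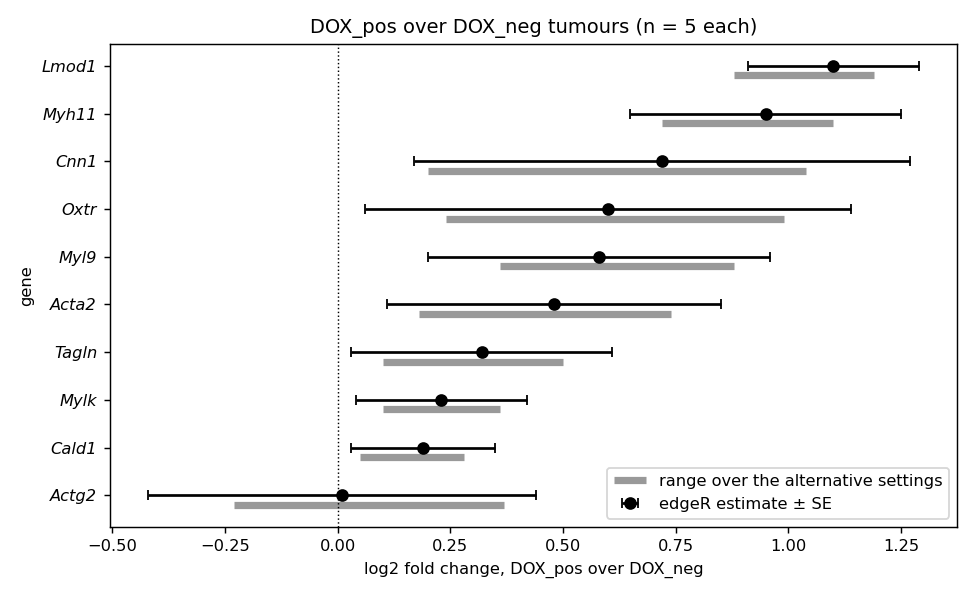
Log2 fold change of DOX_pos over DOX_neg (x axis) for each contractile gene (y axis), as the edgeR estimate ± SE in black and, in grey, the range over the alternative settings. Lmod1 (1.10) and Myh11 (0.95) lie farthest to the right, and the range of Actg2 (-0.23 to 0.37) spans 0.

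High and low tumours occurred in both groups. After centring each gene's log2(CPM + 1) on its mean over the 10 tumours, the genes averaged 0.55 in DOX_pos 1, 0.37 in DOX_pos 3, 0.27 in DOX_pos 4 and 0.41 in DOX_pos 5, but -0.63 in DOX_pos 2. In DOX_neg tumours 1 to 5 the averages were -0.17, -0.41, -0.25, -0.45 and 0.31. The average of DOX_pos 4 was raised most by Oxtr (1.38), Lmod1 (0.60) and Cald1 (0.58). Acta2 (-0.15), Myh11 (-0.03), Mylk (-0.12) and Cnn1 (-0.36) were below their means in that tumour. DOX_pos 1 was among the 3 highest tumours for 9 of 10 genes, DOX_pos 5 for 6, DOX_pos 3 for 5 and DOX_pos 4 for 4. DOX_neg 5 was among them for 4, and each of the other DOX_neg tumours for 0 or 1. DOX_pos 2 was among the 3 lowest for 8, DOX_neg 4 for 6 and DOX_neg 2 for 5. Of these 3 tumours, DOX_pos 2 had the highest Hpn of all tumours (46.0 CPM) and DOX_neg 4 the lowest (14.2 CPM). A relation between Hpn and the contractile genes was not tested.

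**Figure D3:**
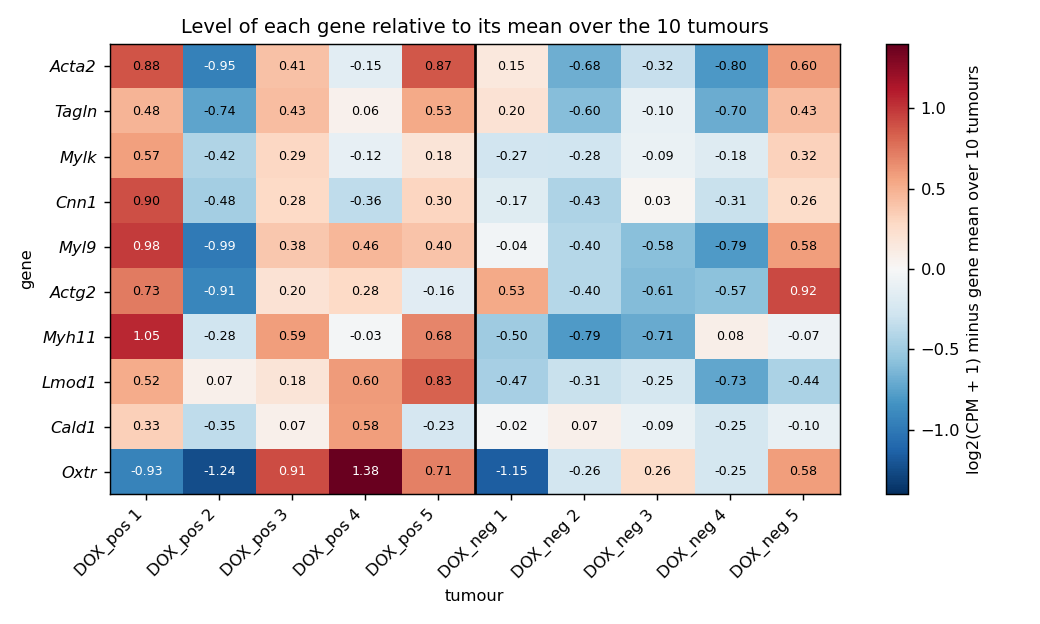
Log2(CPM + 1) of each contractile gene (rows) minus its mean over the 10 tumours, for DOX_pos tumours (left of the line) and DOX_neg tumours (right of it). The column of DOX_pos 2 is negative for most genes, and those of DOX_pos 1, DOX_pos 3, DOX_pos 5 and DOX_neg 5 are mostly positive. Oxtr, Cald1 and Lmod1 depart from the other rows.

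To ask which genes vary together apart from the group contrast, each gene was centred on its own group's mean and correlated over the 10 tumours, with exact permutation within groups. Of the 45 pairs, 44 had a positive group-centred r, with a median of 0.52, and 12 pairs had an adjusted p under 0.05 after adjustment over the 45 pairs. All pairs share the library and its depth. The same counts were not made for pairs of other genes, so these values do not show that such co-variation is particular to the contractile set. Acta2 and Tagln were closest, with a group-centred r of 0.97 and rho of 0.96 (exact permutation p = 0.000139, adjusted p = 0.00625). Over the 10 tumours without centring, this pair had r = 0.97 (permutation p = 1e-05, the smallest that 100000 permutations can give) and rho = 0.98 (permutation p = 3e-05), and r stayed 0.97 without the 2 tumours farthest from the median of Acta2. Mylk with Cnn1 had a group-centred r of 0.94 and Actg2 with Myl9 of 0.93 (adjusted p = 0.00729 for each, exact permutation).

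The genes differed in how closely they kept to the rest of the set. The median group-centred r of a gene with the other 9 was 0.8 for Acta2, 0.78 for Mylk, 0.78 for Tagln, 0.73 for Cnn1, 0.73 for Myl9, 0.62 for Actg2 and 0.56 for Myh11. It was 0.35 for Lmod1, 0.29 for Cald1 and 0.26 for Oxtr, none of which exceeded 0.7 with any other gene of the set. Lmod1, the gene whose groups did not overlap, was thus among the genes that varied least with the others within groups.

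Markers of the cell types that could carry these transcripts were set beside them: Krt14, a keratin of basal mammary epithelium, Rgs5, a marker of pericytes, and Col1a1, the collagen of fibroblasts. None of the 30 relations over the 10 tumours had an adjusted p under 0.05. With Krt14, r was 0.68 for Acta2 (permutation p = 0.0364, adjusted p = 0.295; rho 0.60, permutation p = 0.0741, adjusted p = 0.443) and 0.66 without the 2 tumours farthest from the median of Krt14. Tagln and Cnn1 had r of 0.68 and 0.66 with Krt14, whereas Oxtr had -0.06 and Cald1 -0.23. With Rgs5 the largest r was 0.69, for Actg2 (permutation p = 0.0322, adjusted p = 0.295; rho 0.70, permutation p = 0.0307, adjusted p = 0.443), and it was 0.53 without the 2 tumours farthest from the median of Rgs5.

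Col1a1 differed between the groups in the other direction from the contractile genes, at 708 ± 237 CPM in DOX_pos and 1574 ± 464 CPM in DOX_neg (SD, n = 5 each; log2 fold change -1.15, SE 0.27, edgeR adjusted p = 0.196). Every DOX_pos tumour was below every DOX_neg tumour for Col1a1, as for 1.13% of all genes, and the adjusted p was 0.00399 with DESeq2 and 0.041 with limma voom. Over the 10 tumours Tagln had r = 0.24 with Col1a1 (permutation p = 0.493, adjusted p = 0.672; rho -0.02, permutation p = 0.973) and -0.02 without the 2 tumours farthest from the median of Col1a1. Centred within groups, r was 0.88 (exact permutation p = 0.00313, adjusted p = 0.0469), and it lay between 0.80 and 0.93 with each tumour left out in turn. Cnn1 had a group-centred r of 0.88 (adjusted p = 0.0469) and Mylk of 0.84 (adjusted p = 0.0479) with Col1a1, by exact permutation. Acta2 had 0.85 and did not pass (adjusted p = 0.051, exact permutation). These 3 calls were lost when any tumour other than DOX_neg 3 was left out, and 5 relations passed without DOX_neg 3. The median group-centred r of the 10 genes was 0.64 with Col1a1, 0.37 with Krt14 and 0.32 with Rgs5, and the differences between these medians were not tested.

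**Figure D4:**
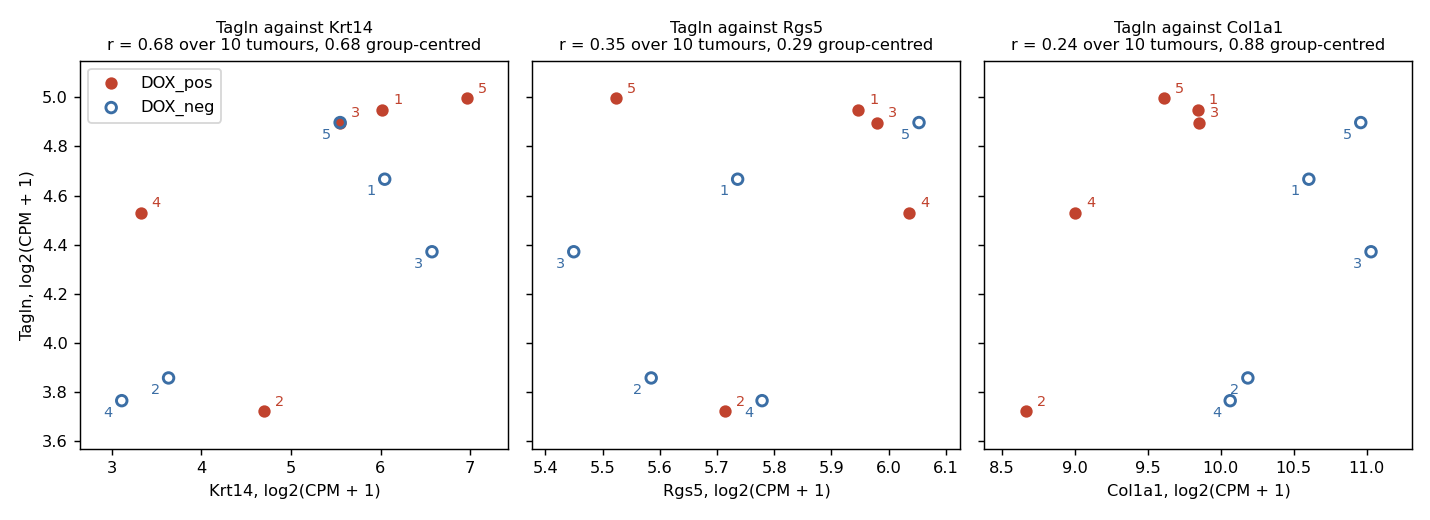
Tagln (y axis) against Krt14, Rgs5 and Col1a1 (x axes), all as log2(CPM + 1), with filled points for DOX_pos and open points for DOX_neg tumours and replicate numbers beside them. In the Col1a1 panel the tumours of each group line up along their own slope, which gives r = 0.24 over 10 tumours and 0.88 after centring on the groups.

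The whole marker lists were compared in the same way, each by counts and summed CPM, and no gene of any list passed edgeR's adjusted test. Genes of a list can vary together, so the signs in this and the following lists are not independent observations. Of 16 basal and myoepithelial identity genes outside the contractile apparatus, 15 were tested and 15 had a log2 fold change above 0, against 50.5% of all genes, with a median of 0.71. Of these, 2 had an unadjusted p under 0.05, against 8.2% of all genes called higher: Krt15, a basal keratin, with a log2 fold change of 1.57 (SE 0.56, edgeR adjusted p = 0.245), and Itgb4, a hemidesmosome integrin, with 0.61 (SE 0.24, edgeR adjusted p = 0.27). Krt14, the basal marker used above, averaged 53.6 ± 44.6 CPM in DOX_pos and 44.9 ± 36.6 CPM in DOX_neg, with both group medians at 45.8 CPM. Its log2 fold change was 0.26 (SE 0.74, edgeR adjusted p = 0.883). Krt5 had 0.82 (SE 0.97, edgeR adjusted p = 0.694) and Trp63 had 0.38 (SE 0.56, edgeR adjusted p = 0.751). DESeq2 and limma voom called 0 of the 15. Their summed level overlapped between groups, at 807 to 1866 CPM in DOX_pos and 455 to 1331 CPM in DOX_neg. The lowest sums were those of DOX_neg 4 (455 CPM), DOX_neg 2 (578), DOX_pos 2 (807) and DOX_pos 4 (866), and DOX_pos 4 was at the same time the highest tumour for Oxtr and Cald1. The part of basal cells in the contractile differences was not tested.

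Pericyte and vascular smooth muscle markers gave 7 tested genes above 0 and 6 below, against 50.5% of all genes above 0, with a median of 0.12. Of the 13 tested, 0 had an edgeR p under 0.05 before adjustment, against 8.2% of all genes higher and 7.83% lower. DESeq2 and limma voom called 0. Their summed level was 251.9 to 356 CPM in DOX_pos and 249.7 to 325 CPM in DOX_neg. Rgs5 itself averaged 56.8 ± 8.25 CPM in DOX_pos and 52.3 ± 8.57 CPM in DOX_neg. Cspg4, a proteoglycan of pericytes, averaged 23.0 ± 3.95 CPM in DOX_pos and 17.5 ± 4.37 CPM in DOX_neg (edgeR adjusted p = 0.317), and Rgs4 4.92 ± 1.05 CPM in DOX_pos and 3.69 ± 0.947 CPM in DOX_neg (edgeR adjusted p = 0.329). Of 14 fibroblast and myofibroblast markers, 10 were below 0 and 4 above, against 50.5% of all genes above 0, with a median of -0.66. Their sums were 1035 to 2616 CPM in DOX_pos and 2089 to 4228 CPM in DOX_neg. The 4 above 0 were Tnc (log2 fold change 0.24, SE 0.36), Postn (0.22, SE 0.46), Fbln1 (0.03, SE 0.41) and Thy1 (0.01, SE 0.23). Fap was at -0.01 (SE 0.27). At an unadjusted p under 0.05, 4 of the 14 were lower (Col1a1, Col1a2, Lum and Col14a1), against 7.83% of all genes. DESeq2 called 2 of the 14, against 1.24% of all genes called higher and 0.748% lower. Limma voom called 3, against 2.12% higher and 2.68% lower. Col1a2, the partner chain of Col1a1, averaged 419 ± 133 CPM in DOX_pos and 929 ± 254 CPM in DOX_neg (adjusted p = 0.196 in edgeR, 0.00228 in DESeq2 and 0.037 in limma voom). The part of fibroblasts in the contractile values was not tested. None of the listed genes of these lists was at 0 in every tumour.

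Skeletal muscle moved with single tumours and not with a group. Acta1, the skeletal actin, was at 22.2 CPM in DOX_pos 1, 11 in DOX_pos 3 and 20.9 in DOX_neg 5, and at most 0.541 CPM in the other tumours. Of the 12 skeletal muscle markers 1 passed the filter on low counts, Mylpf, with a log2 fold change of 0.06 (SE 0.61, edgeR adjusted p = 0.969). These 3 tumours were also among the higher ones for several contractile genes, and Des, the desmin of all muscle types, had 10.6, 7.26 and 10.0 CPM in them. Without them, an alternative chosen after seeing the data, the median log2 fold change of the 10 contractile genes was 0.40 and 0 passed. Lmod1 was then at 1.18, Myh11 at 0.72 and Acta2 at 0.49, while Cnn1 was at 0.20 and Oxtr at 0.99.

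Of 26 further smooth-muscle cytoskeletal genes, 23 had a fitted log2 fold change above 0, against 50.5% of all genes, with a median of 0.38. At an unadjusted p under 0.05, 9 were higher and 1 was lower, against 8.2% and 7.83% of all genes. The 9 were Synm, Flna, Itga8, Cnn2, Ppp1r12a, Cnn3, Vcl, Tln1 and Kcnmb1. Des (log2 fold change 0.45, SE 0.53), Synpo2 (0.48, SE 0.32), Smtn (0.23, SE 0.14) and Pdlim3 (0.10, SE 0.29) were not among them. The lower gene was Pgm5 (log2 fold change -1.03, SE 0.45). DESeq2 and limma voom called 0 of the 26. Synm (synemin, an intermediate filament protein) averaged 4.53 ± 2.25 CPM in DOX_pos and 2.12 ± 0.846 CPM in DOX_neg, a log2 fold change of 1.10 (SE 0.37, edgeR adjusted p = 0.241). Flna (filamin A, which links actin filaments) averaged 951 ± 222 CPM in DOX_pos and 628 ± 163 CPM in DOX_neg, with 4 of 5 DOX_pos tumours above every DOX_neg tumour (log2 fold change 0.60, SE 0.21, edgeR adjusted p = 0.246). Both were lowest in DOX_neg 4.

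Among the SRF regulators and the RhoA arm that feeds them, all 11 tested genes had a log2 fold change above 0 (50.5% of all genes), with a median of 0.16, and 2 were higher at an unadjusted p under 0.05 (8.2% of all genes). Arhgef11, an activator of RhoA, averaged 69.7 ± 3.83 CPM in DOX_pos and 62.2 ± 4.91 CPM in DOX_neg (log2 fold change 0.16, SE 0.07, edgeR adjusted p = 0.276). Mrtfa, the actin-sensing SRF partner, averaged 39 ± 4.56 CPM in DOX_pos and 33.2 ± 3.94 CPM in DOX_neg (log2 fold change 0.24, SE 0.10, edgeR adjusted p = 0.297). Srf had 49.3 ± 9.23 CPM in DOX_pos and 47.3 ± 7.19 CPM in DOX_neg. Myocd, the muscle-restricted partner, had 1 to 10 counts per tumour and was too low to be tested. Arhgef11 and Mrtfa were the 2 genes of this list that limma voom called, against 2.12% of all genes called higher. DESeq2 called 0, against 1.24% of all genes called higher.

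Downstream of the oxytocin receptor, 9 of 13 tested genes had a log2 fold change above 0 (50.5% of all genes), with a median of 0.15, and 4 were higher at an unadjusted p under 0.05 (8.2% of all genes). Orai1, the plasma membrane channel that refills calcium stores, had 13.9, 12.6, 13.7, 12.4 and 12.8 CPM in DOX_pos, against 10.2, 9.15, 10.8, 9.43 and 9.88 CPM in DOX_neg. Every DOX_pos tumour exceeded every DOX_neg tumour, as for 1.82% of all tested genes. Orai1 had a log2 fold change of 0.41 (SE 0.08) with an edgeR adjusted p of 0.196, a DESeq2 adjusted p of 0.00228 and a limma voom adjusted p of 0.0234. Plcb3, a phospholipase that makes the calcium-releasing messenger, showed the same separation at 85.2 ± 3.35 CPM in DOX_pos and 75.1 ± 5.27 CPM in DOX_neg (log2 fold change 0.18, SE 0.06, edgeR adjusted p = 0.238).

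**Figure D5:**
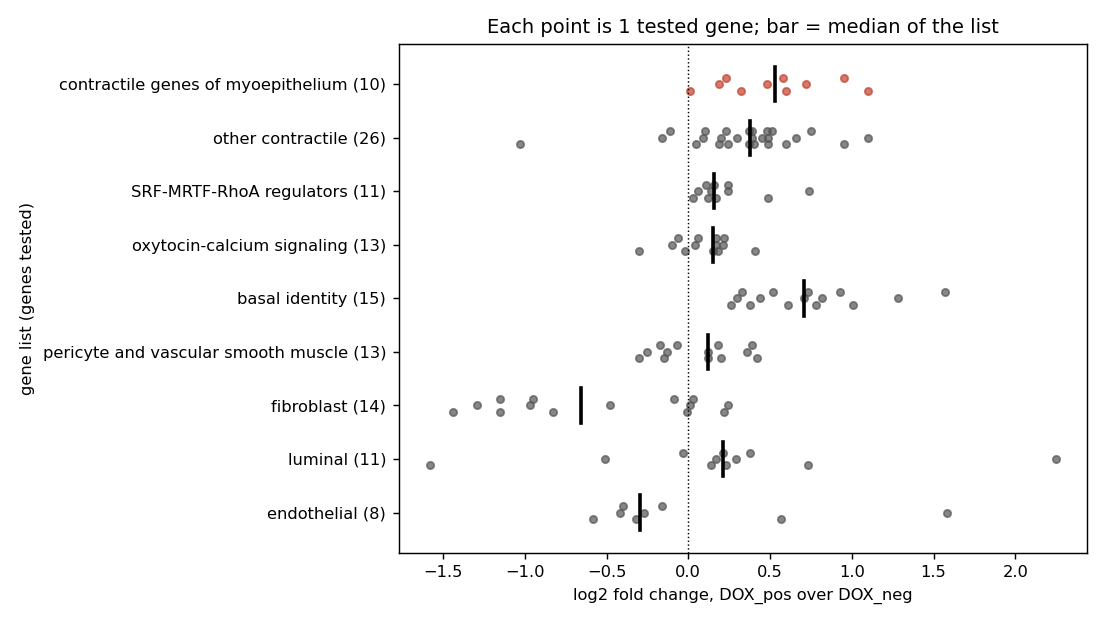
Log2 fold changes of DOX_pos over DOX_neg (x axis) for the tested genes of each list (y axis), 1 point per gene, with the median marked. The contractile genes (median 0.53) and basal identity genes (0.71) lie right of 0, mural markers (0.12) around it, and fibroblast markers (-0.66) mostly left of it.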

How the data were processed

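The members and gene lists were chosen with earlier results of these data known. The deposited values were raw read counts per Ensembl gene, made by the authors with bcl2fastq, Trimmomatic, STAR 2.6.0c, featureCounts and DESeq2 on GRCm38, per the submitters' processing notes. RNA was depleted of ribosomal RNA and read single-end to 75 bp from a directional kit, per the labels' protocols. No source used here gives the annotation release or the strand setting. Of 55335 identifiers, 55154 matched a symbol and 23154 had no count. Gene coordinates came from GENCODE M21 (GRCm38).

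Counts were fitted without a block in edgeR 4.0.16 (R 4.3.3) with TMM scaling, filterByExpr (minimum count 10, minimum total 15), the quasi-likelihood test and Benjamini-Hochberg adjustment over 16167 genes, at a threshold of 0.05. CPM use TMM-scaled library sizes and levels per kilobase use the union of exons. Counting error is largest for Cnn1, which has the fewest counts, while the standard errors also hold the spread between tumours and do not follow the counts alone. DESeq2 1.42.0 and limma 3.58.1 were alternatives, and scripts were tested on simulated data. Correlations used log2(CPM + 1), 100000 permutations over 10 tumours, or all 14400 permutations within groups after centring, adjusted over 30 relations or 45 pairs. None of the 20 pairs of libraries from 1 group agreed within counting error (chi-square over its degrees of freedom 6.76 to 41.9).

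Named genes were the 10 contractile genes, Hpn, the 3 marker genes Krt14, Rgs5 and Col1a1, the 2 genes of each list with the smallest edgeR p, and the 10 genes with levels most like the set's mean. Acta1, Des, Srf, Myocd, Krt5, Trp63 and the further genes named in the fibroblast and smooth-muscle cytoskeletal lists were added after their values were seen.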

Additional observations from a re-analysis of the deposited data

How the results depend on the processing

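Over 20 alternative settings, 187 of 199 log2 fold changes of the contractile genes kept their sign and their side of the adjusted threshold. Lmod1 (0.88 to 1.19) and Myh11 (0.72 to 1.10) passed with limma voom and Lmod1 with DESeq2, so the count of contractile genes called was 1 with DESeq2 and 2 with voom, and 0 in the other settings, each tumour left out included. Actg2 turned negative 9 times: -0.09 with voom, -0.08 without the ends of the first principal component (DOX_pos 5 and DOX_neg 4), -0.01 without the 3 tumours with skeletal muscle markers, and between -0.23 and -0.02 (-0.23, -0.02 and -0.05 without DOX_pos 1, 3 and 4, and -0.12, -0.16 and -0.15 without DOX_neg 2, 3 and 4, against at most 0.37, without DOX_neg 5). The cause was not tested. With 1 tumour left out the log2 fold change lay between 0.25 (without DOX_pos 1) and 1.04 (without DOX_neg 5) for Cnn1, 0.24 (without DOX_pos 4) and 0.85 (without DOX_pos 2) for Oxtr, and 0.05 (without DOX_pos 4) and 0.28 (without DOX_pos 2) for Cald1. For Acta2 (0.32 to 0.74), Tagln (0.19 to 0.50), Myl9 (0.36 to 0.88) and Mylk (0.10 to 0.36) the highest value came without DOX_neg 5. Without both ends of the first principal component, Acta2 was at 0.18, Tagln at 0.10, Myl9 at 0.43 and Mylk at 0.19. The median of the contractile genes was then 0.33. Cnn1 was not tested with a filter of 1 CPM in 5 libraries.

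Over all genes, DESeq2 called 322, voom 775 and edgeR with a replicate block 7, against 0 without the block. Leaving out 1 tumour gave 0 to 37, with 37 without DOX_neg 3 and 2 without DOX_pos 2. At an unadjusted p under 0.05 there were 2592. Same-numbered tumours had correlations of 0.32, 0.288, 0.131, 0.12 and 0.057 for their deviations, and 1 of 5 correlated best with its own number, so the numbers were not taken as pairs, and the block called 0 contractile genes. The 3 group-centred relations became 5 with library size scaling and 0 to 5 with 1 tumour left out, and the relations over 10 tumours stayed at 0 in every alternative. The difference in Hpn was 0.38 to 0.60 with 1 tumour left out (exact permutation p 0.0159 to 0.0476). The settings without the ends of the first component and without the tumours with skeletal muscle markers, and those of the group-centred relations, were chosen after seeing the data. Counting error is largest for Cnn1, at 5 counts in its lowest tumours.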

Other observations

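The genes whose level over the 10 tumours was most like the mean of the contractile set were, among 10597 genes with a mean of at least 5 CPM, Msrb3 (r = 0.96), Itga1 (0.95), Tmem165 (0.94), Pea15a (0.94), Tmsb4x (0.93), Lgals1 (0.93), Ptn (0.93), Ctnnd2 (0.93), Gpc4 (0.93) and Lasp1 (0.92). The pool left out the contractile genes and genes named only by a Gm number, a Rik name or an Ensembl identifier. These r values are a description over 10 tumours that share library and depth. Because the genes were picked by this likeness, a low value in DOX_pos 2 follows in part from the choice. Itga1, a collagen-binding integrin of smooth muscle, is itself in the list of further contractile genes. Msrb3, which repairs oxidised methionine, had 28.2, 8.84, 22.2, 19.4 and 27.9 CPM in DOX_pos and 13.2, 11.2, 14.2, 9.83 and 16.4 CPM in DOX_neg. It was lowest in DOX_pos 2, as 8 of the contractile genes were, and the other 4 DOX_pos tumours stood above every DOX_neg tumour. Ptn, the secreted growth factor pleiotrophin, spread more widely, with 80.4, 5.39, 55.7, 72.9 and 102 CPM in DOX_pos and 38.0, 17.3, 36.2, 12.4 and 53.0 CPM in DOX_neg. Its lowest tumour was again DOX_pos 2, and its 2 lowest DOX_neg tumours were replicates 2 and 4.

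Luminal and endothelial markers were read in the same fit. Of 11 tested luminal genes, 8 had a log2 fold change above 0 (50.5% of all genes) and 3 below, with a median of 0.21. Prom1, a membrane protein of luminal cells, averaged 35.1 ± 3.84 CPM in DOX_pos and 21.2 ± 7.13 CPM in DOX_neg (log2 fold change 0.73, SE 0.20, edgeR adjusted p = 0.205, DESeq2 0.0344, limma voom 0.0343). Elf5, the transcription factor of alveolar luminal cells, averaged 88.5 ± 19.1 CPM in DOX_pos and 126 ± 22.9 CPM in DOX_neg (log2 fold change -0.51, SE 0.16, edgeR adjusted p = 0.23). Of 8 endothelial genes, 2 had a log2 fold change above 0 (50.5% of all genes) and 6 below, with a median of -0.30. Vwf averaged 11.8 ± 9.87 CPM in DOX_pos and 3.94 ± 1.33 CPM in DOX_neg (edgeR adjusted p = 0.232, DESeq2 0.044, limma voom 0.0857), with 28.8 CPM in DOX_pos 5 and 3.29 to 10.2 CPM in the other DOX_pos tumours, whereas the vessel receptor gene Kdr averaged 17.2 ± 1.39 CPM in DOX_pos and 21.6 ± 3.04 CPM in DOX_neg (edgeR adjusted p = 0.239).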
